A study of Homo sapiens with 2 samples.

Results

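The 8q24 MYC region was taken as the stretch of chromosome 8 from 126 to 130 Mb (hg18), and it held 281 of the 23450 PROX1 peaks in the deposited list. Peaks belonged to it when their centre lay between positions 126000000 and 129999999. The stretch was chosen by its number of peaks, since its bounds were set with the peak counts known, so its density is described here without a test. All other values of these peaks come from the same pair of libraries and are also given as descriptions. The peaks came from SW480R cells, which belong to the established colorectal cancer cell line SW480. PROX1-bound DNA was pulled down from fixed cells with 5 µg of goat antibody, and a second library was made from input DNA of the same cells without antibody. Material from 3 independent immunoprecipitations was pooled into 1 ChIP library, so there was no replicate spread, and intervals below cover counting error only. Cells without PROX1 were not analysed here, so the antibody's own background is unknown.

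PROX1 is a homeobox transcription factor that sets lymphatic, hepatic and lens cell identity and that is switched on in a subset of colorectal tumours. MYC encodes a transcription factor that drives growth and division, and in colorectal cancer its transcription is raised by Wnt signalling through TCF7L2 and β-catenin. The DNA on both sides of MYC is poor in coding genes and rich in long non-coding RNAs and in enhancers that contact MYC over long distances, among them an enhancer that carries a common colorectal cancer risk variant and binds TCF7L2. In the RefSeq gene order, LRATD2 and then POU5F1B are the nearest coding genes before MYC, PVT1 is the long non-coding RNA that follows it, and GSDMC is the next coding gene beyond. Positions of these neighbours on hg18 were not used here. MYC was placed at about 128817500 to 128822850 and the risk enhancer at about 128482500, so that 335 kb separated the enhancer from the MYC start. MYC is read towards higher coordinates, and distances are from peak centres to its start for peaks before it and to its end for peaks after it.

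PROX1 peaks were crowded in blocks along the 4 Mb around MYC, and long empty spans lay at both edges. The stretch held 70.2 peaks per Mb, against 6.09 per Mb for the 866 peaks on the rest of chromosome 8, a ratio of 11.5. For tags, the sequenced ChIP fragments counted within peaks, the contrast was wider, with 5803 tags per Mb of the stretch against 207 per Mb of the rest, a ratio of 28.0. The stretch thus held 24.5% of the chromosome's peaks and 44.0% of its tags in peaks. These ratios count assembly gaps in the length of the rest. Without the gaps they were 11.2 for peaks and 27.2 for tags. With peaks whose edges lay within 10 kb counted once, and gaps kept, the ratio of peak densities was 5.38.

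The first peak inside the bounds, at chr8:126200691-126200731, had 18 tags, and the last before them, at chr8:125806071-125806111, had 20 tags and lay 394.58 kb away. At the other end the last peak inside, at chr8:129816131-129816171, had 13 tags, and the next one, at chr8:130322691-130322731, had 17 tags and lay 506.52 kb further on. The 1 Mb before the stretch held 17 peaks with at most 89 tags, and the 1 Mb after it held 4 peaks with at most 28 tags. The bounds therefore fell in empty DNA on both sides, and moving them within those gaps would leave the members as they are. The stretch lies within 1 contig of the hg18 assembly.

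The peaks were gathered in a few blocks. Of the 40 segments of 100 kb, 34 held a peak and 6 held none. On the rest of the chromosome, assembly gaps included, 71.0% of the 1423 segments held none. The 11 segments with 10 or more peaks took 69.4% of the peaks and 84.0% of the tags. The fullest was 128.3 to 128.4 Mb, upstream of the risk enhancer, with 35 peaks and 3581 tags. It was followed by 129.6 to 129.7 Mb with 29 peaks and 2707 tags, and by 126.7 to 126.8 Mb with 22 peaks and 3252 tags. Next came 128.2 to 128.3 Mb with 19 peaks and 1249 tags and 128.1 to 128.2 Mb with 17 peaks and 2038 tags.

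These 5 segments held 43.4% of the peaks. By tags, the segment with MYC, 128.8 to 128.9 Mb, took a place among the first 5 with 2393 tags in 10 peaks, in place of 128.2 to 128.3 Mb. No segment on the rest of chromosome 8 held more than 16 peaks or 1008 tags, and no other nuclear segment held more than 22 peaks or 1523 tags. Segments of the stretch passed the highest tag sum found elsewhere in the nuclear genome 6 times.

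**Figure D1:**
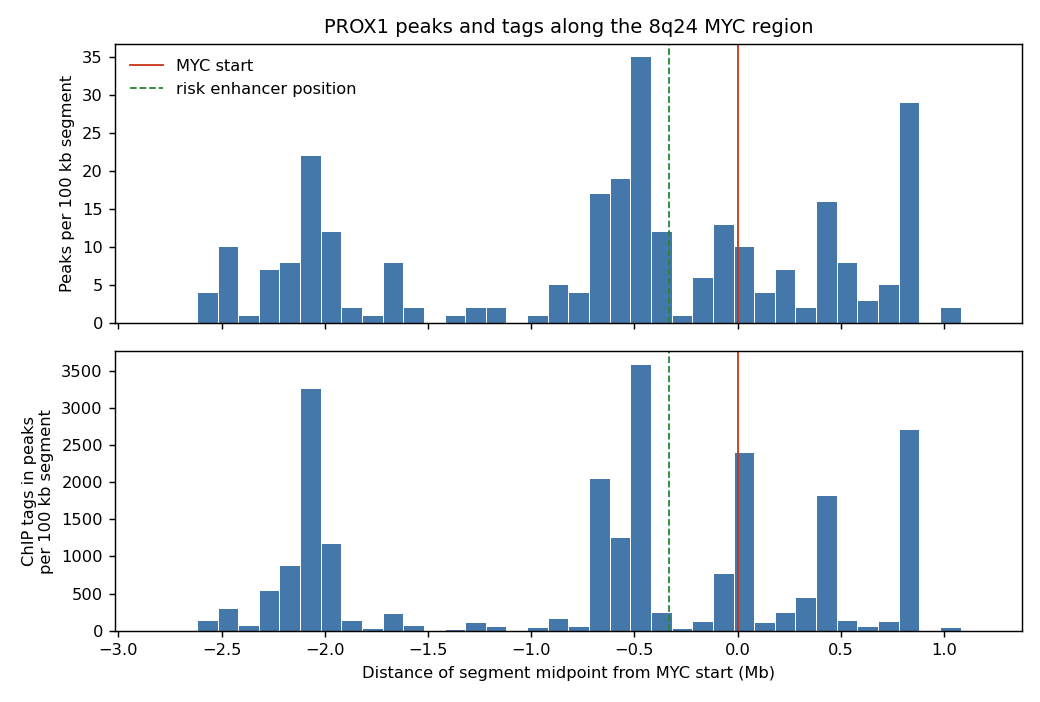
Peaks (upper bars) and ChIP tags in peaks (lower bars) in each of the 40 segments of 100 kb, by the distance of the segment midpoint from the MYC start in Mb, with lines at the MYC start and the risk enhancer. The highest bars for peaks are the segment of 35 peaks before the enhancer and the segment of 29 peaks after MYC, and the MYC segment is high in tags (2393) but holds 10 peaks.

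Between these blocks lay long spans with no peak. The longest, 254.4 kb, ran from 127637091 to 127891491, and the next, 244.62 kb, from 127215011 to 127459631. Both fell in the window from 127 to 128 Mb, which held 22 peaks with 661 tags, while the windows on either side held 66 peaks with 6437 tags and 121 peaks with 10569 tags. The window from 129 to 130 Mb held 72 peaks with 5544 tags. Other spans of 168.36 kb (from 126415671), 135.9 kb (from 126914691) and 130.2 kb (from 129685791) also had none.

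Over the bounds as set, the 2 sides of MYC were similarly dense for their length, but they differed at matched distances. Before MYC lay 198 peaks over 2.82 Mb, or 70.3 per Mb, and after it 82 peaks over 1.18 Mb, or 69.7 per Mb. Peaks before MYC made up 70.5% of all, and this side made up 70.4% of the length. Within 1 Mb, the side before the gene held 116 peaks with 8391 tags and the side after it 82 peaks with 7783 tags. Strong peaks, meaning those with a fold over input of at least 26.06 (2 times the list's lowest), made up 22.4% of the peaks within 1 Mb before MYC and 28.0% within 1 Mb after it, against 30.3% of all nuclear peaks. The median tag counts were 18 and 20.

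PROX1 peaks at MYC itself formed a run of 9 over 23.62 kb, at chr8:128806471-128830091, with 2377 tags. A run here is a set of peaks whose edges lie within 10 kb of the next. The largest of these peaks, at chr8:128824591-128824631, was centred 1.76 kb after the MYC end and had 2047 tags, the most of any nuclear (not mitochondrial) peak in the list. Its fold was 47.72, with 43 inferred input tags, the most of any nuclear peak. Input tags were inferred from the ratio of tags to fold.

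One peak lay inside the gene, at chr8:128821211-128821251, centred 3731 bp after the start and 1619 bp before the end, with 140 tags, a fold of 23.39 and 6 inferred input tags. Which exon or intron it falls in was not determined. The nearest peak before the gene, at chr8:128816011-128816051, was centred 1.47 kb before the start, where the promoter lies, and had 22 tags at a fold of 22.05. A pair of peaks further out lay 10.17 kb and 11.01 kb from the start, with 86 and 14 tags. After the gene, small peaks stood beside the largest, with 13 tags at 1.17 kb and at 1.46 kb and 25 tags at 2.19 kb, and a peak of 17 tags lay 7.21 kb away.

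The tags at MYC were thus held mostly by 1 position behind the gene, which gave 86.1% of the tags of its run. That position also had 43 inferred input tags. The peaks of the run before the gene had 14 to 86 tags. Beyond the run, the next peak after MYC lay 31.77 kb away with 16 tags, and it was the only one between 10 and 100 kb after the gene. Between 10 and 100 kb before the gene there were 12 peaks with 635 tags.

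**Figure D2:**
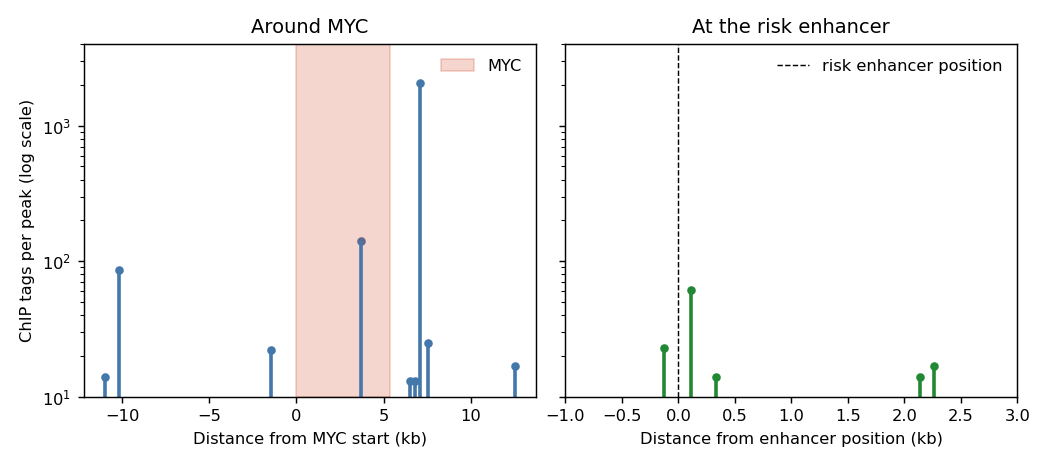
ChIP tags of single peaks (log scale, lines drawn down to 10 tags) around MYC, by distance from its start in kb, and at the risk enhancer, by distance from its position in kb. The peak of 2047 tags stands behind the gene, and the enhancer peaks lie between 14 and 61 tags.

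At the colorectal risk enhancer, PROX1 peaks stood on both sides of the given position but held few tags. The peak at chr8:128482311-128482431, whose edge lay 69 bp before the position, had 23 tags and a fold of 21.05. The peak at chr8:128482591-128482631, whose edge lay 91 bp after it, had 61 tags, a fold of 15.29 and 4 inferred input tags. The other 3 peaks of this run lay 331, 2141 and 2261 bp away by their centres, with 14, 14 and 17 tags.

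These 5 peaks spanned 2.48 kb and held 129 tags together, 0.556% of the tags of the stretch, and none was strong. Within 25 kb of the position there were 2 more peaks, of 13 and 16 tags, both before it. The enhancer position was approximate, so the order of the nearest peaks around it holds only for the position as given.

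The largest run of the stretch lay upstream of the enhancer, 451.94 to 522.02 kb before MYC, with 41 peaks and 4246 tags, 18.3% of all tags of the stretch. In its first part, 17 peaks followed each other at chr8:128296531-128302451, none more than 1 kb from the next, and held 2658 tags over 5.92 kb. Among them were peaks of 873 tags (fold 25.74, 34 inferred input tags), 615 tags (fold 102.76, 6 input tags) and 338 tags (fold 338.84, 1 input tag). Further along, the peak at chr8:128328991-128329031 had 388 tags at a fold of 129.66, and that at chr8:128347131-128347271 had 239 tags at a fold of 53.13. Of the 41 peaks, 20 held under 20 tags, and the 11 peaks of 100 tags or more held 3524 of the run's tags. The run was therefore a few high peaks set among many near the lowest tag count of the list, 13.

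A second upstream run, 697.25 to 709.45 kb before MYC, held 10 peaks with 1928 tags over 12.3 kb. Its peaks at chr8:128117131-128117171 and chr8:128117291-128117471 stood 120 bp apart, with 344 tags at a fold of 114.95 and 704 tags at a fold of 100.82. Another high peak of the run, at chr8:128120231-128120271, had 617 tags at a fold of 18.74, which corresponds to 33 inferred input tags. Strong peaks made up 5 of the 10, where 23.5% of the stretch and 30.3% of all nuclear peaks were strong. Between this run and the largest one, a pair at 540.13 and 540.43 kb before MYC had 179 and 49 tags, and the first of these had a fold of 179.45.

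Far upstream, around 2 Mb before MYC, 4 runs of 5 or more peaks followed each other. The run 2203.8 to 2221.87 kb before the gene held 9 peaks with 1156 tags. It included the pair at chr8:126596211-126596351 and chr8:126596451-126596571, with 199 and 233 tags at folds of 199.5 and 169.42, and a peak of 604 tags at a fold of 28.83. The run 2069.23 to 2098.38 kb before held 12 peaks with 2326 tags. Its peak at chr8:126736931-126737231 was the second of the whole nuclear list by tags, with 1027 tags at a fold of 60.55. It was followed 140 bp later by one of 538 tags at a fold of 29.96.

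The remaining runs of this block held 10 peaks with 926 tags (2027.97 to 2054.37 kb) and 6 peaks with 870 tags (1957.47 to 1971.85 kb), of which 726 were in 1 peak at a fold of 18.66. More than 1 Mb before MYC there were 82 peaks in all, at 45.1 per Mb, with 29.7% of the tags of the stretch. Between 500 kb and 1 Mb before the gene there were 63, at 126 per Mb, and they were the densest class beyond 100 kb.

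Between the enhancer and MYC, the runs were weaker. One run 126.23 to 149.69 kb before the gene held 5 peaks with 14 to 29 tags. Another, 51.3 to 84.12 kb before it, held 9 peaks with 522 tags, of which 377 were in the peak at chr8:128733631-128733931, at a fold of 62.99. Its other 8 peaks had 13 to 30 tags. A set of 3 peaks, 110.41 to 111.71 kb before MYC, had 35, 155 and 42 tags.

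Beyond the MYC run, the blocks on the downstream side lay far from the gene. The run 229.46 to 242.19 kb after the gene held 5 peaks with 142 tags, the highest at 71. A peak standing alone at chr8:129116731-129116771 had 428 tags at a fold of 21.45 with 20 inferred input tags, the most tags of the 43 peaks with no neighbour within 10 kb. The peak with the highest fold of the whole list, 435.08, was in the run 385.9 to 401.73 kb after MYC, at chr8:129209311-129209551, with 434 tags and 1 inferred input tag. The other 5 peaks of that run had 13 to 49 tags.

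In the next run, 419.46 to 438.14 kb after MYC, 8 peaks held 1200 tags. They included the peak at chr8:129258371-129258511 with 334 tags at a fold of 334.83, and 2 peaks 80 bp apart with 316 and 306 tags at folds of 19.8 and 15.34. The second largest run of the stretch, 811.92 to 862.91 kb after MYC, held 29 peaks with 2707 tags over 51.04 kb. Its highest peak, at chr8:129636511-129636631, had 991 tags at a fold of 28.38 and 35 inferred input tags. Its highest fold, 121.3, was at chr8:129665731-129665771 with 121 tags. Within the bounds, no peak lay more than 1 Mb after the gene.

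**Figure D3:**
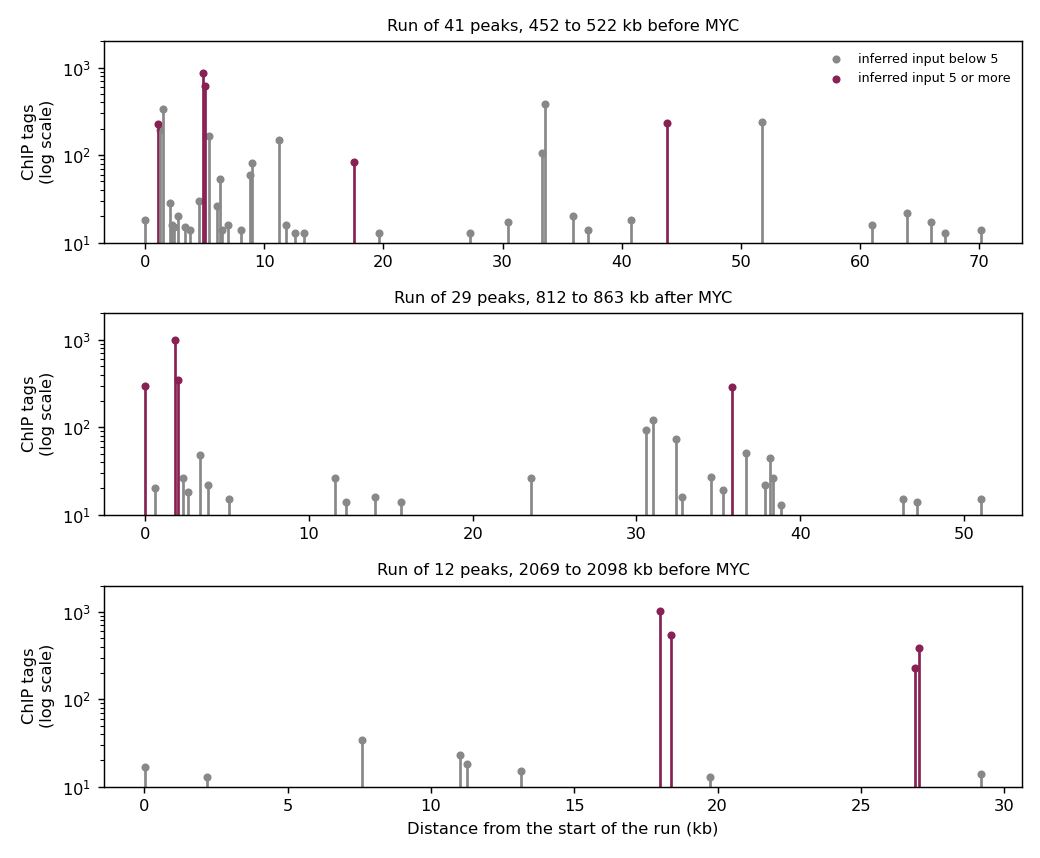
ChIP tags (log scale, lines drawn down to 10 tags) of each peak in the 3 runs with the most peaks (41, 29 and 12), by distance from the start of the run in kb. Dark points have 5 or more inferred input tags, and in each run a few peaks of over 200 tags stand among many below 30.

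In all, joining within 10 kb gave 86 places, of which 43 were single peaks, 29 were runs of 2 to 4 and 14 were runs of 5 or more. The 14 longer runs covered 8.79% of the stretch and held 164 peaks (58.4%) with 82.7% of the tags. The median tag count was 21.5 in these runs, 18.5 in runs of 2 to 4 and 16 in single peaks. Another peak lay within 10 kb of 84.7% of the peaks of the stretch and of 53.1% of those on the rest of chromosome 8, and within 1 kb of 47.3% and 28.2%. On the rest of the chromosome the largest run held 8 peaks and 13.7% of peaks were in runs of 5 or more. Whether neighbours like these mark 1 binding site or several was not tested.

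Folds of at least 100 lay mostly in runs of 5 or more. The 10 highest folds mostly stood on the lowest inferred input, as most peaks of the stretch did. Strong peaks numbered 66 of 281 (23.5%, 95% Clopper-Pearson interval 18.7 to 28.9), against 30.3% of all nuclear peaks and 27.6% of the rest of chromosome 8. Folds of at least 100 occurred in 13 of the 281 (4.63%, 2.49 to 7.78), against 0.961% of all nuclear peaks and 7 of the 866 on the rest of the chromosome. These folds come from the same 2 libraries as the peak counts that set the bounds, so nothing is read from these shares. Of the 13, 12 lay in runs of 5 or more, which held 58.4% of all peaks of the stretch. The run of 41 peaks held 5 of the 13. Among the 10 peaks with the highest folds, from 114.95 to 435.08, 7 had 1 inferred input tag, and none had 5 or more. At 1 input tag, fold and tag count were nearly the same number. An inferred input of 1 was found for 72.6% of the peaks of the stretch and 71.9% of all nuclear peaks. The 7 of 10 were thus near the share of all peaks.

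**Figure D4:**
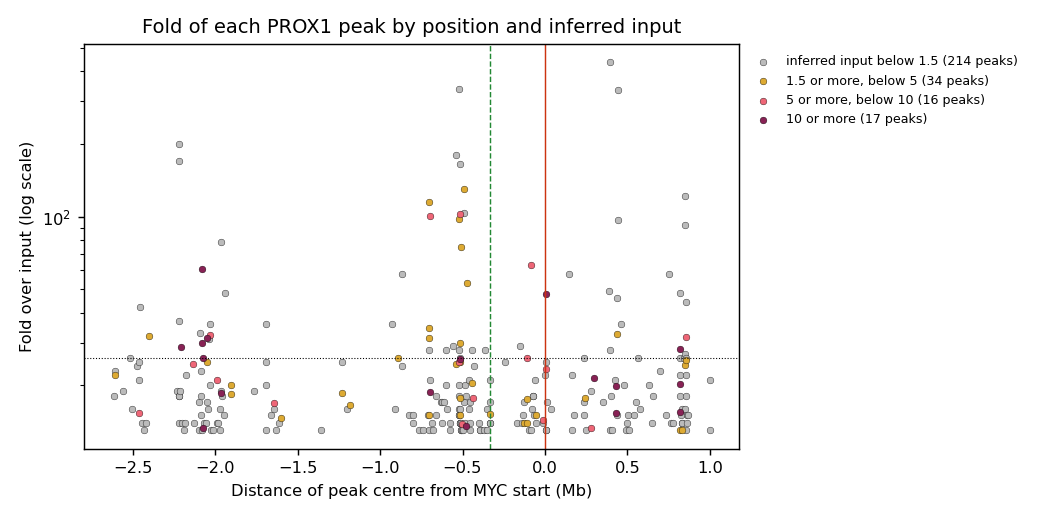
Fold over input (log scale) of each of the 281 peaks by distance of its centre from the MYC start in Mb, coloured by inferred input tags, with a dotted line at a fold of 26.06 and vertical lines at MYC and the risk enhancer. The highest folds (435.08, 338.84 and 334.83) are on peaks of low input, and the 17 peaks with 10 or more input tags have folds of 60.55 or less.

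The 10 highest tag counts stood on peaks whose inferred input was also high. All 10 of the 10 nuclear peaks with the most tags were in the stretch, with 538 to 2047 tags, and the highest count elsewhere in the nuclear list was 532. Ranked by fold instead, 3 of the first 10 nuclear peaks were in the stretch, and no peak of the stretch was among its own first 10 on both measures. Each of the 10 peaks with the most tags had 5 or more inferred input tags, and 8 had 10 or more. Of the 10, 3 were not strong, with folds of 25.74, 18.66 and 18.74.

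An inferred input of 5 or more, called raised below, was found for 33 of the 281 peaks (11.7%, interval 8.22 to 16.1), against 4.42% of all nuclear peaks and 3.58% of the rest of chromosome 8. At 10 or more the numbers were 17 of 281 (6.05%), 0.611% and 0.346%. At 2 or more the difference was gone, with 22.8% of the stretch, 22.7% of all nuclear peaks and 19.9% of the rest of the chromosome. The 33 raised peaks held 60.6% of the tags of the stretch, and the 31 raised peaks of the rest of the chromosome held 3821 of its 29485 tags. They had a median of 306 tags and a median fold of 23.39, against 114 tags and a fold of 16.67 for the raised nuclear peaks.

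Raised input was found in 14 of the 40 segments of the stretch. There were 11 raised peaks in the window from 126 to 127 Mb, 1 from 127 to 128 Mb, 13 from 128 to 129 Mb and 8 from 129 to 130 Mb. Of the 33 raised peaks, 25 lay in runs of 5 or more, which held 58.4% of all peaks of the stretch. Outside the bounds, 2 of the 17 peaks in the 1 Mb before were raised, and none of the 4 in the 1 Mb after. The highest inferred input in the 1 Mb before was 5, the cut-off itself, against 43 in the stretch. Because every listed peak had a fold of at least 13.03, a peak of raised input had to hold many tags to be listed, so the high tags of raised peaks are in part set by the list. Some peaks of many tags were not raised: those of 434, 338 and 334 tags had 1 inferred input tag each. All 10 peaks with the most tags were raised. The list shows no depth between peaks. Input beside a high-input peak was not always raised. Of the peaks with 10 or more inferred input tags, 14 had a neighbour within 1 kb, and for 5 of these no such neighbour was raised. Extra DNA copies of the region, which would add tags to both libraries, and more PROX1 on the same number of copies cannot be told apart from a list of peaks alone. Other sources of raised input were not tested either.

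The other peaks of the stretch were low. Those of 20 tags or fewer made up 52.7% of the stretch (46.7 to 58.6) and 41.7% of the rest of chromosome 8. The median was 20 tags against 23, while the mean was 82.6 against 34.0. The 28 peaks with the most tags, 10% of the stretch, held 63.5% of its tags, and the same share of the rest of the chromosome held 30.9%. Counts of 300 tags or more were found in 22 peaks of the stretch and in none of the rest of the chromosome, where the highest was 272. Peak widths were alike, with a median of 40 bp in both and 25.6% against 25.2% of peaks at 80 bp or more.

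**Figure D5:**
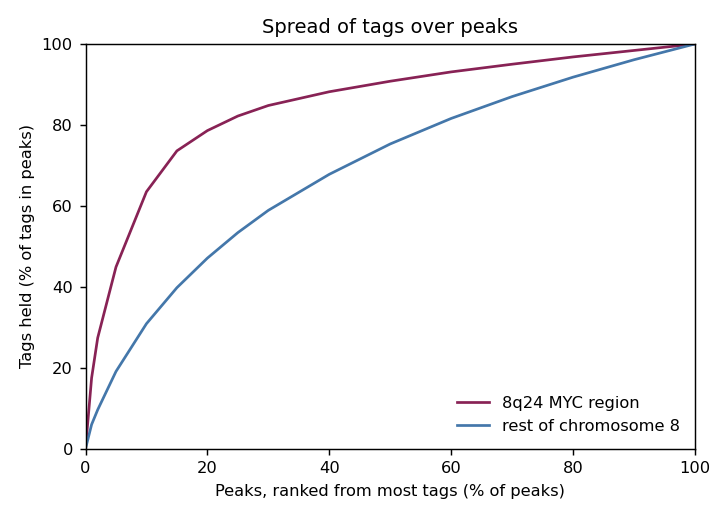
Share of tags in peaks (%) held by peaks ranked from the most tags (% of peaks), for the stretch and the rest of chromosome 8. The curve of the stretch climbs faster, reaching 63.5% of tags at 10% of peaks against 30.9%.

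The densest 1 Mb windows on other chromosomes held fewer tags. The window at 53 to 54 Mb of chromosome 14 held 72 peaks and that at 35 to 36 Mb of chromosome 21 held 71, close to the 72 of the window from 129 to 130 Mb of the stretch. Their tags numbered 2694 and 4255, against 5544. Raised input was found in 1 and 4 of their peaks, against 8, and an input of 10 or more in 1 peak of each, against 6. At 2 or more the shares were 18.1% on chromosome 14 and 29.6% on chromosome 21, against 18.1%, so the window of the stretch was not higher at that level. Strong peaks made up 47.2% and 43.7%, against 29.2%. Their median tag counts were higher, at 28 and 43 against 20.5. The 3 windows were chosen for their peak counts and were not tested against each other.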

How the data were processed

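PROX1 ChIP-seq peaks of 1 ChIP library against 1 input library were analysed. The ChIP library took 10 ng of DNA, per the labels' protocols. Coordinates are on hg18, per the submitters' processing notes. Aligner, peak caller, threshold and library depths were not given in the sources used here, so depth outside peaks is unknown. The file has no header. Tag counts per peak, as deposited, are raw whole numbers. The fold column was taken to be the authors' ratio of ChIP to input tags after scaling. The deposited p-value (or q-value, the file does not say which) was not used. Whether starts count from 0 or 1 is unknown.

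Input tags were inferred as tags times 1.0025, a constant read from the list, divided by the fold. They came out whole within 0.02 for 266 of the 281 members, and 1 may stand for 0 or 1 tag. Peaks were joined with edges within 10 kb (runs) or 1 kb. Segments were 100 kb. Positions of MYC and the enhancer were approximate and not read from an annotation. Gene order came from RefSeq (GRCh38.p14), without coordinates. Chromosome length came from a contig table of hg18 in the R package IRanges. Python 3.11.15, numpy 2.4.6, pandas 2.3.3, scipy 1.17.1 and matplotlib 3.10.9 were used. The joining and input steps were run on simulated data whose folds were made with the same formula. That run checks the code only, not the meaning of the fold column or the inferred input. Intervals are exact binomial and count neighbouring peaks as independent. Reads without molecular identifiers are not independent molecules, so they cover counting error only.

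No test was run, because the stretch was chosen on the same contrast and each kind of library was present once. The members, lists and named items were chosen with earlier results of these data known. Named items were the 10 peaks highest by fold and by tags, the 5 fullest segments by peaks and by tags, runs of 5 or more, peaks next to MYC and the enhancer, and the longest empty spans. Pairs and sets outside these were chosen after their values were seen. Alternatives covered the fold threshold, merging, joining distance, segment size and the input level.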

Additional observations from a re-analysis of the deposited data

How the results depend on the processing

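Of 33 alternative values for 9 results, 18 stayed close to the reported value (within 1.5 times for counts, within the binomial interval for shares) and 15 moved. For the share of tags in the fullest segment, that interval counted each of 23211 tags as independent. It was therefore narrow, and small shifts were labelled as moved. With the 12528 peaks at or above the median fold of 19.05, the stretch held 120 peaks and 20 runs, 55.0% of its peaks were strong (56.8% of nuclear peaks), 17.5% had raised input (2.86% of nuclear peaks), and the fullest segment held 16.3% of tags against 15.4%. That share was 19.0% with segments shifted by 50 kb, 16.9% without the peak with the most tags, and 18.3% without raised-input peaks, when 128.3 to 128.4 Mb was still the fullest. Joining within 50 kb gave 11 runs. Empty segments were 31.2% at 50 kb and 5.0% at 200 kb. The density ratio to the rest of chromosome 8 was 5.38 with peaks within 10 kb counted once. Raised input was found in 22.8% of peaks at 2 or more tags, where nuclear peaks had 22.7%, and in 6.05% at 10 or more. Ranking by fold instead of tags left 3 stretch peaks among the first 10. The ratio's alternatives and those on raised-input peaks, ranking by fold, the lowest input and tags before MYC were chosen after seeing the data. No paired analysis was possible because each kind of library was present once.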

Other observations

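Some of the 17 peaks with 10 or more inferred input tags stood in pairs. Close spacing was not limited to them: 14 of the 17, and 47.3% of all peaks of the stretch, had another peak no more than 1 kb away. Pairs were not counted at other input levels, so pairing is not shown to be particular to these peaks. Of the 17, 8 formed 4 neighbouring pairs whose edges lay 80 to 140 bp apart, with 1027 and 538, 227 and 387, 316 and 306, and 991 and 344 tags. Other peaks of this kind stood among low ones: for 5 of the 14 that had a neighbour joined within 1 kb, no such neighbour reached 5 input tags. The peak of 2047 tags and 43 input tags behind MYC was one of these, since its 3 neighbours within 1 kb had at most 25 tags and 1 input tag each. The peak of 726 tags and 39 input tags at chr8:126850051-126850231 was another, with a neighbour of 78 tags and 1 input tag 660 bp away.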
